A study of Mus musculus with 6 samples.

Results

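The proteasome is the large protease that destroys proteins tagged with ubiquitin, and its genes carry the symbols Psma to Psmg followed by a number. Every row of the deposited gene table with such a symbol was taken, which gave 50 genes of 23725. The label fits the rule with 1 exception, since Psmc3ip, named as an interaction partner of Psmc3, encodes a recombination factor and no subunit. The list also holds activators, an inhibitor and assembly chaperones, which are not part of the mature core.

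RNA came from regulatory T cells (Tregs), a CD4 T cell type that holds other immune cells in check, taken from lymph nodes of C57Bl/6 mice. The wild-type (WT) group has 3 libraries, and 3 more represent mice lacking myelin oligodendrocyte glycoprotein (MOG) in the whole animal (MOG KO). Mice of both genotypes had been immunised with MOG. Each library was made from the RNA of 500 cells with 15 cycles of PCR, without molecular identifiers, so counting intervals and floors cover counting error only. The sources used here give no ages, sexes or sorting gate. The replicates are numbered within a genotype and are not said to be separate mice, so the spread that the p-values rest on may be technical.

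In the cell, alpha and beta subunits form a barrel-shaped 20S core whose proteolytic sites lie on 3 of its beta subunits. A 19S cap, made of a base with ATPases and a lid, recognises the ubiquitin tag, unfolds the protein and feeds it into the core. Other catalytic subunits, which interferon gamma can induce, replace the constitutive ones in the immunoproteasome. This form favours peptides that class I major histocompatibility molecules can present. Tregs, like other lymphocytes, carry much of this form.

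The libraries held 2717969 to 4472549 gene counts. Levels are in RPM, the reads of a gene scaled to a common library total, with replicates 1, 2 and 3 in order and WT first. Presence of a gene means a level of at least 10 RPM in that library. Where a count is 0, counting error alone allows a level up to that of 3 counts, between 0.671 and 1.1 RPM by library. With losses before counting, the true level may be higher. Mog itself had at most 1 count in any library, so it does not check the labels. Of 6 Treg and T cell markers, 5 were present in all 6 libraries, and their summed level was 2530 to 4240 RPM in WT and 2950 to 4040 RPM in MOG KO. Markers of myeloid, dendritic, CD8 T and natural killer cells reached 10 RPM in no library, and Cd8a, Cd8b1, Ncr1 and Klrb1c had 0 counts throughout. The 5 B cell markers summed to 2.21, 206 and 87.3 RPM for WT against 0, 130 and 1.16 RPM for MOG KO. Of these, Cd79b and Ms4a1 were each present in at least 1 library, while Cd79a and Pax5 had 0 counts in all 6. Of 4 stroma and endothelium markers, 1 was present, Pecam1, and the list summed to 1.98 to 91.6 RPM in WT and 28 to 461 RPM in MOG KO. The part of these cells in the values below was not tested.

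Proteasome genes as a whole took a similar share of the counts in every library, while the level of a single gene could be high in 1 library and near 0 in the next. The 50 genes held 0.507%, 0.474% and 0.545% of the counts in WT and 0.49%, 0.508% and 0.667% in MOG KO. The means were 0.509% ± 0.0355 and 0.555% ± 0.097 (SD, n = 3 per group), and the groups overlapped. The highest share was 1.41 times the lowest. In bulk RNA, fewer cells that use a gene and less RNA per cell cannot be told apart.

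**Figure D1:**
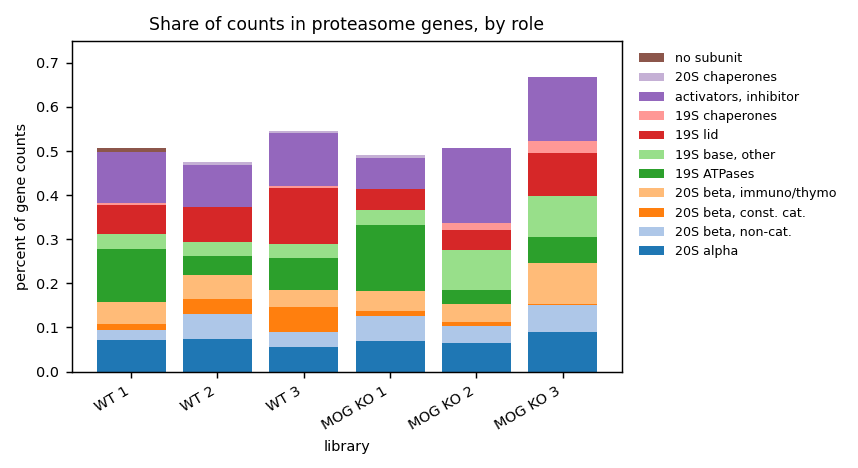
Percent of all gene counts that fell in proteasome genes, stacked by role, for each of the 6 libraries. The total lies between 0.474% and 0.667%, while the bands of single roles change in height from library to library.

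Of the 50 genes, 6 were present in all 6 libraries, 38 in 1 to 5 and 6 in none. The 6 found throughout were the core subunit genes Psma2, Psmb1, Psmb6 and Psmb8, the base subunit gene Psmd2 and the activator gene Psme1. Another 14 were present in 5 libraries, so that 20 of the 44 genes present anywhere (45.5%) were present in 5 or 6. Among all 7909 genes present anywhere the same share was 17.4%, and 8.9% were present in all 6. Of the 14 genes missing from 1 library, 6 were missing from WT replicate 3, 4 from MOG KO replicate 3, and WT replicate 2 lacked none. WT replicate 3 also had the fewest genes present, 2701 against 3265 to 4440 elsewhere, and the fewest proteasome genes, 23 against 26 to 33. Without it, 12 proteasome genes were present in all of the other 5 libraries, and without MOG KO replicate 3 the number was 10. Among all genes these numbers were also the largest, 951 and 824, against 747 to 805 without another library.

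**Figure D2:**
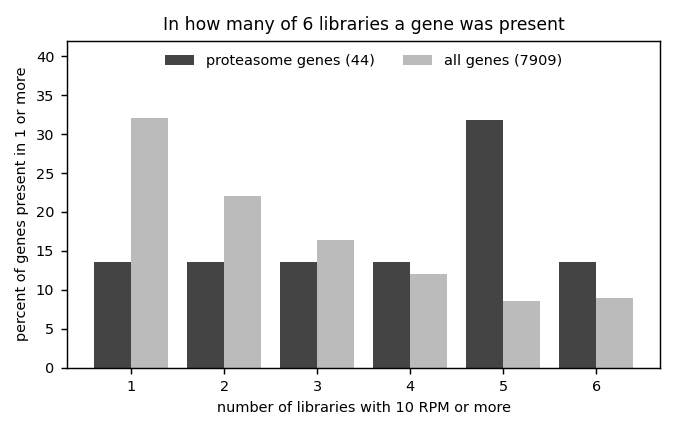
Bars give the percent of genes present at 10 RPM or more in exactly 1 to 6 libraries, for the 44 proteasome genes and the 7909 genes of the whole table that were present in at least 1 library. The tallest bar of the proteasome genes stands at 5 libraries (31.8%) and that of all genes at 1 library (32.1%).

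Values were mostly high or near 0. Of the 264 values of these 44 genes, 121 (45.8%) were 100 RPM or more, 81 (30.7%) were under 3 RPM and 17 (6.44%) lay between 3 and 10 RPM. For all genes present anywhere, 31.8% of the values were 100 RPM or more and 52% were under 3 RPM. Genotype did not order this pattern by count, since the presence of 16.3 ± 3.5 proteasome genes (SD) differed within the 6 same-genotype pairs and of 16.9 ± 3.92 within the 9 mixed pairs. The 6 libraries enter several pairs each, so the pairs are not independent.

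The constitutive core, base and lid subunits of the 26S particle are encoded by 31 of these genes, of which Psmb5, Psmb6 and Psmb7 can be replaced by inducible forms. They were unevenly read. Present were 21, 24 and 17 of the 31 in WT and 19, 18 and 16 in MOG KO. At 3 counts or fewer were 5, 2 and 9 of them in WT and 7, 6 and 9 in MOG KO. No library therefore had all 31 at 10 RPM.

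**Figure D3:**
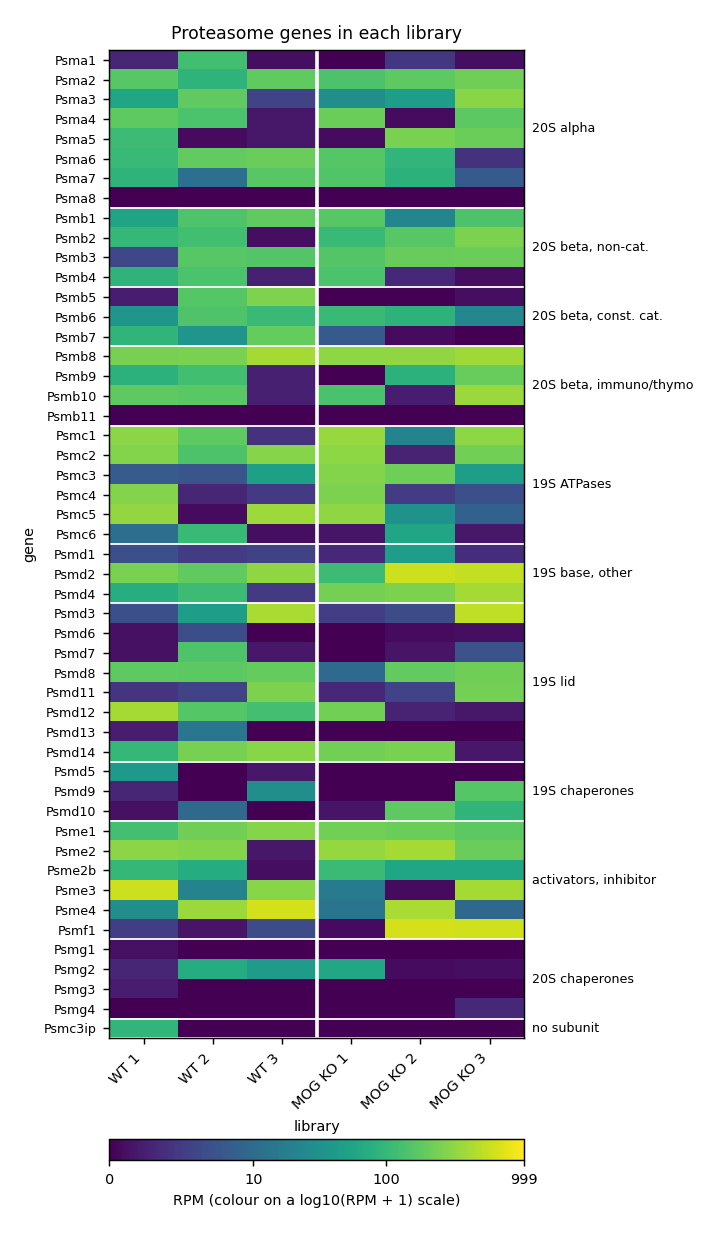
Level of each of the 50 genes (rows, grouped by role) in each of the 6 libraries (columns, WT left and MOG KO right), coloured by RPM on a log10(RPM + 1) scale. Psmb8, Psma2, Psme1 and Psmd2 are bright across the row, while rows such as Psma1, Psmb5 and Psmf1 switch between bright and dark.

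Lymph node Tregs of MOG KO mice were set against those of WT mice to ask which genes differ between the genotypes. Of the 50 genes, 37 passed the filter on low counts, and 0 of these had an adjusted p under 0.05 in edgeR's quasi-likelihood test with Benjamini-Hochberg adjustment. Over all 4088 genes tested the number was 0 as well (0.0%). Psmf1 was the 1 proteasome gene with an unadjusted p under 0.05, where 5.11% of all genes tested had one. The fold changes of the 37 genes were positive for 19 and negative for 18, with a median of 0.02, against 52.1% positive and a median of 0.06 over all genes. Their median SE was 2.05 (range 1.12 to 2.97) against 2.42. The 95% intervals of 36 genes included 0, and the narrowest, that of Psmb8, ran from -2.5 to 2.67. Genes whose groups did not overlap were 2 of the 37, Psmb7 lower and Psmd4 higher in MOG KO. Over all genes tested 10.5% did not overlap, 4.57% lower and 5.97% higher in MOG KO, so 2 of 37 was no more than that background.

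**Figure D4:**
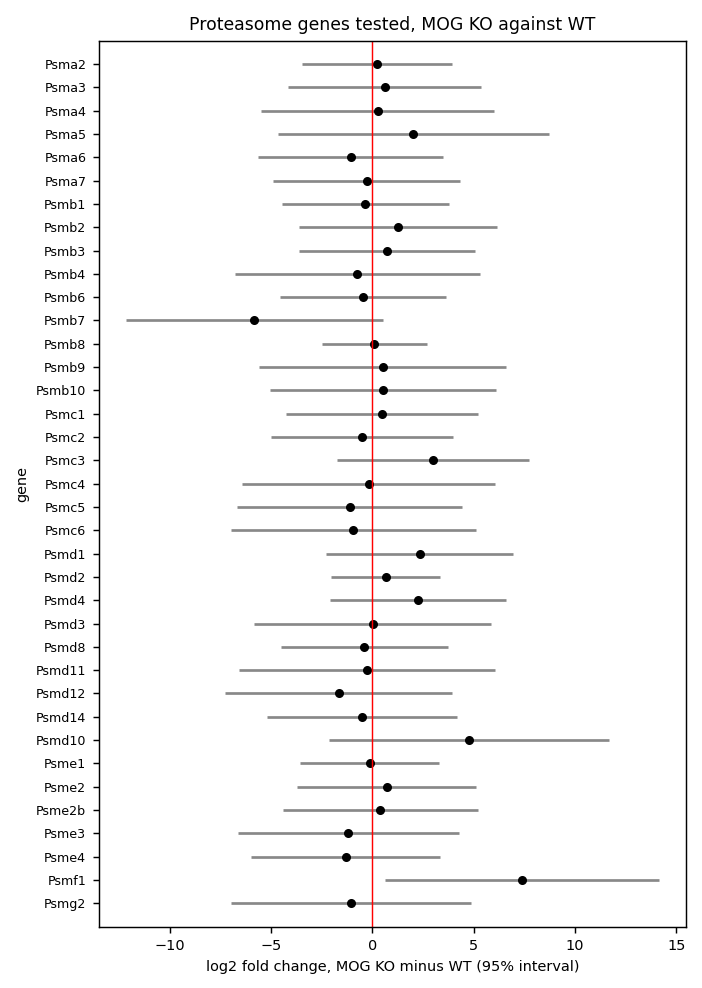
Log2 fold change (points) and 95% interval (lines) of the 37 proteasome genes tested, from edgeR, with positive values higher in MOG KO. All intervals but that of Psmf1 cross 0 (red line).

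By DESeq2, 2 of the 34 proteasome genes with an adjusted p passed (5.88%), Psmb5 lower and Psmf1 higher in MOG KO. Of all 4648 such genes 16.0% passed. The gene sets of the tools differ: of the 745 DESeq2 calls over all genes, 202 were tested in edgeR. Psmf1 was among these and Psmb5 was not. By limma-voom 0 passed. Single libraries set many of the directions: 20 of the 37 fold changes turned sign when 1 library was left out. In every alternative fit that held them, 16 kept their sign. The same counts over all genes are not given here, so they do not set proteasome genes apart. Some of the values that turned were near 0, such as that of Psmb8, 0.08, which became -0.04 without WT replicate 1. Psmd3, at 0.02 with all libraries, ran from -5.79 without MOG KO replicate 3 to 2.79 without WT replicate 3.

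The alpha ring closes the ends of the core and controls entry into it. Of its 7 ubiquitous subunit genes and the testis gene Psma8, only Psma2 was present in all 6 libraries. It was read at 164, 87.7 and 184 RPM for WT against 143, 178 and 219.7 RPM for MOG KO, which is a log2 fold change (MOG KO minus WT) of 0.24 ± 1.6 (SE, n = 3 per group). Its groups overlapped, and its level varied with a coefficient of variation of 27.5% over the libraries. Psma6 was high in 5 libraries and near 0 in 1, with 104, 187 and 207 RPM for WT against 159, 94.2 and 1.74 RPM for MOG KO. Psma1, by contrast, was present in WT replicate 2 alone, at 123 RPM, and had 0 to 2.06 RPM in the other 5 libraries. The remaining alpha genes were present in 3 to 5 libraries, and Psma8 had 0 counts in all 6. Among the 6 alpha genes tested, 4 had positive and 2 negative fold changes, with a median of 0.25 and 0 past the threshold.

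The beta ring carries the active sites, and its non-catalytic subunits Psmb1 to Psmb4 complete it. Psmb1 was present throughout, at 55.9, 146 and 185 RPM for WT against 163, 22.9 and 143 RPM for MOG KO (log2 fold change -0.34 ± 1.78). Its lowest library was a MOG KO one and its highest a WT one, and the ranges overlapped. Psmb2 lacked WT replicate 3 (0.283 RPM) and Psmb3 lacked WT replicate 1 (3.31 RPM), and both had 98.2 RPM or more elsewhere. Psmb4 was present in 3 libraries, at 89 to 141 RPM, and at 0.29 to 1.15 RPM in the other 3.

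The catalytic subunits come in pairs of a constitutive and an inducible form that take the same place in the ring. Psmb6 is paired with Psmb9, Psmb7 with Psmb10 and Psmb5 with Psmb8. The inducible gene Psmb8 was the steadiest of all proteasome genes present in every library, with 244, 247 and 393 RPM for WT against 309.6, 314 and 368 RPM for MOG KO. Its means were 294 ± 85 and 330.3 ± 32.2 RPM (SD, n = 3 per group). The coefficient of variation was 19.5%, rank 75 of the 704 genes present in all 6 libraries, whose median was 44.1%. Its log2 fold change was 0.08 ± 1.12 with a 95% interval of -2.5 to 2.67, and the groups overlapped. The sign of this value was negative in 5 of 13 alternative fits, so the data give it no direction.

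Its constitutive counterpart Psmb5, which carries the chymotrypsin-like site, was present in 2 WT libraries. It had 0.736, 161 and 264 RPM for WT, from 2, 722 and 931 counts, against 0, 0 and 0.29 RPM for MOG KO, from 1 count in all. The groups did not overlap, but WT replicate 1, with its 2 counts, was near 0 like the MOG KO libraries. Over the pooled counts the WT to MOG KO ratio was 1870, with a counting interval of 336 to 74100 that leaves out the spread between libraries. Psmb5 was present in 2 libraries and did not pass the filter on low counts. Fitted without that filter it had a log2 fold change of -10.26, an unadjusted p of 0.0289 and an adjusted p of 0.449 in edgeR. DESeq2 gave -11.06 with an adjusted p of 0.00291. A processed pseudogene, Gm3375, matches 796 bases of Psmb5 with 9 differences, and 27% of the 100-base windows in the match hold none, so reads from those windows match both loci.

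Short stretches before the starts of these genes are shown for this pair, of which Psmb8 was present in 6 libraries and Psmb5 in 2. RefSeq windows from 250 bases before to 50 bases after the start, on GRCm38.p6, were searched on both strands for the gamma interferon activated site (TTCNNNGAA), the antioxidant response element core (TGACNNNGC), the interferon-stimulated response element core and the CCAAT box (CCAAT). Capitals mark the matched letters. The Psmb8 stretch is chr17:34198088-34198117 on the plus strand, 107 to 78 bases before the start, and the Psmb5 stretch is chr14:54618023-54618052 on the minus strand, 57 to 28 bases before it.
Psmb8: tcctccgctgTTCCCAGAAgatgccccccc
Psmb5: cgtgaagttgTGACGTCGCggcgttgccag
Windows were found for 42 of the 50 genes. The first motif was in 3 of them (7.14%, against 9.55% of 27025 genes with a window), the second in 6 (14.3% against 14%), the next in 5 (11.9% against 3.99%) and the CCAAT box in 15 (35.7% against 41.1%). The 5 genes with the interferon-stimulated element were Psmb3, Psmd4, Psmd9, Psme1 and Psmg4, none of them a catalytic subunit gene. Differences between these shares were not tested. The antioxidant response element core also matched before Psmb6, present in 6 libraries. The gamma interferon activated site also matched before Psmg1, which was present in no library. These are matches of letters and not measured sites, and a link between them and the levels was not tested.

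Psmb7, the gene of the trypsin-like subunit, was higher in every WT library than in any MOG KO library. It had 89.8, 35.3 and 194 RPM for WT against 6.01, 0.229 and 0 RPM for MOG KO. The log2 fold change was -5.83 ± 2.72, with a 95% interval of -12.17 to 0.5, an unadjusted p of 0.0663 and an adjusted p of 1 in edgeR. It kept its sign in all 13 alternative fits, with values of -9.56 (without MOG KO replicate 1) to -4.87 (without WT replicate 3) when 1 library was left out. The gene Nek6 overlaps Psmb7 on the other strand over 255 bases of transcript, and the strand setting of the counting is not given. Psmb8 (Gm20496, 124 bases) and Psmc3 (Slc39a13, 148 bases) also share transcript with a gene on the other strand, so reads of either partner cannot be told apart if strand was not used.

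The inducible partner of Psmb7, Psmb10, had 178, 168 and 0.85 RPM for WT against 137, 0.688 and 354 RPM for MOG KO, so each genotype held 1 library near 0. Psmb9 was alike in this, with 83.9, 122 and 0.85 RPM for WT against 0, 82.5 and 201 RPM for MOG KO. Both genes had 3 counts in WT replicate 3, where Psmb8 reached its highest value. The log2 fold changes were 0.52 ± 2.4 for Psmb10 and 0.5 ± 2.61 for Psmb9. Both changed sign without WT replicate 3 and without MOG KO replicate 3. Psmb11, the form specific to the thymic cortex, had 0 counts in all 6 libraries.

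Psmb6, the constitutive gene that Psmb9 replaces, was present throughout at 36.1, 147 and 104 RPM for WT against 108, 85.5 and 23.5 RPM for MOG KO (log2 fold change -0.48 ± 1.77). The groups overlapped. Set against each other per kilobase of exon, the inducible form was the higher of the pair in 4 of 6 libraries for Psmb8 over Psmb5, in 2 of 6 for Psmb9 over Psmb6, and in 4 of 5 for Psmb10 over Psmb7, leaving out MOG KO replicate 2, where both had 3 counts or fewer. In the 4 libraries where Psmb8 was the higher, Psmb5 had 2 counts or fewer. Ratios per kilobase were taken where both genes of a pair had over 3 counts. Psmb8 was then 0.845 and 0.821 times Psmb5 in WT replicates 2 and 3. Psmb10 was 1.76 and 4.2 times Psmb7 in WT replicates 1 and 2, and 20.1 times in MOG KO replicate 1. Psmb9 was 1.37 and 0.49 times Psmb6 in WT replicates 1 and 2, and 0.57 and 5.06 times in MOG KO replicates 2 and 3. No single ratio of Psmb9 to Psmb6 therefore described a genotype.

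**Figure D5:**
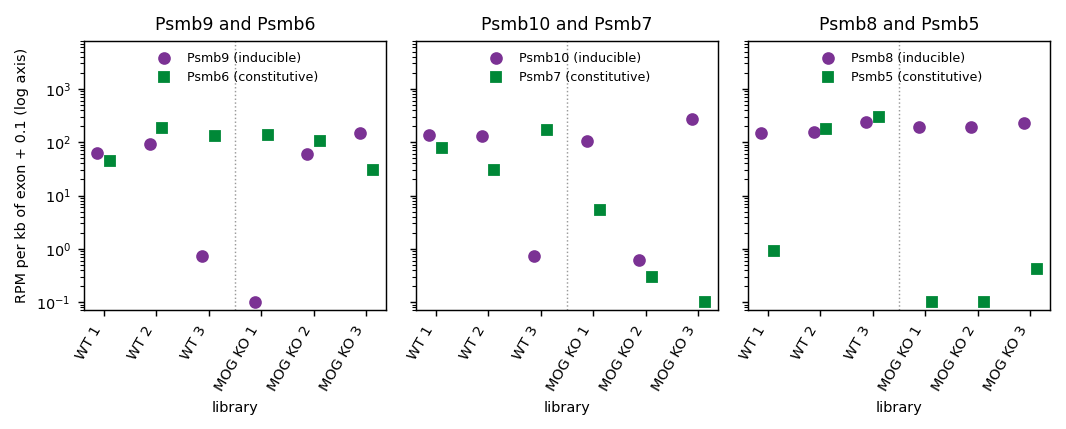
Each panel shows 1 pair of inducible (circles) and constitutive (squares) catalytic subunit genes in the 6 libraries, in RPM per kilobase of exon with 0.1 added, on a log axis. Psmb8 stays between 150 and 241 RPM per kilobase, while Psmb5 is near 0 in WT replicate 1 and all 3 MOG KO libraries.

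Psmb8, Psmb9 and Tap1 lie together in the class II major histocompatibility region of chromosome 17. Psmb8 runs from 34198195 to 34201454 and Psmb9 from 34182030 to 34187330 on GRCm38, which places them 2.81 and 2.82 Mb from Mog (37010740 to 37023398). The starts of Psmb9 and Tap1, which run in opposite directions, are 225 bases apart. Tap1, a subunit of the peptide transporter, was singled out after its values were seen. It had 581, 605 and 785 RPM for WT against 1025, 786 and 428 RPM for MOG KO, so it was read in both libraries where Psmb9 was near 0. Some annotated transcripts of the 2 genes overlap on opposite strands over 212 bases. The other catalytic genes lie on chromosome 14 (Psmb5, 54614120 to 54617995, and Psmb11, 54625310 to 54629556), chromosome 11 (Psmb6, 70525324 to 70527858), chromosome 2 (Psmb7, 38588046 to 38643952) and chromosome 8 (Psmb10, 105935728 to 105938392).

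The ATPases of the base, Psmc1 to Psmc6, unfold the substrate, and none of them was present in all 6 libraries. Psmc3 was the only ATPase gene present in all 3 MOG KO libraries and in 1 WT library. It had 6.25, 5.14 and 49 RPM for WT against 277, 218 and 47 RPM for MOG KO, which is a log2 fold change of 2.98 ± 2.05 with an unadjusted p of 0.185. WT replicate 3 and MOG KO replicate 3 were alike, so the groups overlapped by this pair, and without WT replicate 3 the value was 5.01. Psmc1 and Psmc2 were present in 5 libraries each and Psmc5 in 4. Psmc4 was present in replicate 1 of each genotype (277 and 256 RPM) and at 1.12 to 4.35 RPM elsewhere, and Psmc6 was present in 3 libraries. Of the 6 ATPase genes, 2 had positive and 4 negative fold changes and 0 passed, with a median of -0.33.

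Among the other base subunits, Psmd2, a scaffold that binds ubiquitin shuttle proteins, was present throughout. It had 247, 186 and 317 RPM for WT against 114, 588 and 532 RPM for MOG KO (log2 fold change 0.66 ± 1.17, 95% interval -2.03 to 3.35). The MOG KO libraries held both its lowest and its highest values. Psmd4, the ubiquitin receptor also called Rpn10, was higher in every MOG KO library than in any WT library, with 72.1, 113 and 2.27 RPM for WT against 237, 257 and 391 RPM for MOG KO. Its log2 fold change was 2.26 ± 1.88, with a 95% interval of -2.09 to 6.61, an unadjusted p of 0.264 and an adjusted p of 1 in edgeR. The value was positive in all 13 alternative fits and lowest, 1.7, without WT replicate 3. Psmd1, the other scaffold of the base, had 1.16 to 4.42 RPM in 5 libraries and 47.7 RPM in MOG KO replicate 2. Its log2 fold change of 2.33 ± 1.98 became -1.35 without that library. Psmd1 also shares 305 bases of transcript with Gm21972, an overlapping gene on the same strand, so reads from there match both genes. Psmd2 lies on chromosome 16 from 20651122 to 20663414 and Psmd4 on chromosome 3 from 95032688 to 95042614.

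The lid removes the ubiquitin chain, a cut made by the metalloprotease Psmd14. Psmd14 was present in 5 of 6 libraries at 98.2 to 288 RPM and had 0.58 RPM in MOG KO replicate 3. Psmd8, a structural subunit of the lid, was even in 5 libraries, from 173 to 222 RPM, and had 9.47 RPM in MOG KO replicate 1, just under the threshold of presence. Psmd12 had 388, 160.3 and 127 RPM for WT against 229, 0.917 and 0.58 RPM for MOG KO (log2 fold change -1.66 ± 2.4, unadjusted p 0.511). The groups overlapped through MOG KO replicate 1, without which the value was -8.16. Psmd3 and Psmd11, picked after their values were seen, were both high in replicate 3 of each genotype, at 419 and 519 RPM and at 256 and 236 RPM. In the other 4 libraries Psmd3 had 2.54 to 47 RPM and Psmd11 had 1.16 to 3.13 RPM. Psmd7 and Psmd13 were present in WT replicate 2 alone, at 150.2 and 13.9 RPM, and Psmd6 in no library, with 4.25 RPM as its highest value. Among the 5 lid genes tested, 1 fold change was positive and 4 were negative (median -0.41), and 0 passed.

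The chaperones Psmd5, Psmd9 and Psmd10 help the base to assemble and leave the finished particle. Psmd10, also called gankyrin, was present in 2 MOG KO libraries, with 0.368, 9.84 and 0 RPM for WT against 0.462, 179 and 90.7 RPM for MOG KO. Its log2 fold change was 4.76 ± 2.97 (unadjusted p 0.15), and the groups overlapped. Without WT replicate 2, which held 44 of the WT counts, the value was 8.72. Psmd9 was present in replicate 3 of each genotype, at 29.8 and 162 RPM, and Psmd5 in WT replicate 1 alone, at 40.1 RPM. The core chaperone genes Psmg1, Psmg3 and Psmg4 had 1, 2 and 4 counts over all 6 libraries. Psmg2 was present in 3 libraries at 44.8 to 71.3 RPM, and Psmc3ip had 93.1 RPM in WT replicate 1 and 0 counts elsewhere.

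Activators open the core from outside. Psme1 and Psme2 encode the alpha and beta chains of the interferon-inducible activator PA28. Psme1 was present throughout, at 127, 223 and 283 RPM for WT against 226, 211 and 173 RPM for MOG KO (log2 fold change -0.14 ± 1.48, 95% interval -3.56 to 3.29). The MOG KO values lay within the range of the WT values. Psme2 had 302, 273 and 0.567 RPM for WT against 339, 390.5 and 203 RPM for MOG KO, and so lacked WT replicate 3. Without that library its log2 fold change of 0.7 became 0.14. Psme1 lies on chromosome 14 from 55578494 to 55581527 and Psme2 beside it, from 55587440 to 55591101.

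Psme2 has a near-identical copy, Psme2b, on chromosome 11 from 48945345 to 48946410, and both were counted. Both genes are given in full because of this copy, a choice made after their values were seen. Their transcripts match over 794 bases with 5 differences, all on codon position 3 of the coding sequence (GRCm38, GENCODE M21 transcripts). Of the 695 windows of 100 bases, the read length, 384 (55.3%) hold no difference. Psme2b had 99.7, 70.9 and 0.283 RPM for WT against 109, 58.7 and 58.2 RPM for MOG KO. The counts of Psme2b came to 33% and 25.9% of those of Psme2 for the first 2 WT libraries and to 32.2%, 15% and 28.7% for the MOG KO ones, and in WT replicate 3 the genes had 1 and 2 counts. How the authors' counting placed reads that match both is unknown, so both values are uncertain. Psma3 and Psma5 likewise match processed pseudogenes elsewhere, Psma3 with 0 differences over 665 bases.

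The other activators, Psme3 of the nucleus and Psme4, known as PA200, were present in 5 libraries each with wide ranges. Psme3 had 594, 20.8 and 295 RPM for WT against 16.9, 0.229 and 394 RPM for MOG KO (log2 fold change -1.18 ± 2.35), and Psme4 had 29.1, 355 and 626 RPM and 13.6, 410.2 and 9.27 RPM (-1.31 ± 2). The groups of both genes overlapped, and 1 library could move either value: Psme3 ran from -5.27 without MOG KO replicate 3 to -0.36 without WT replicate 1, and Psme4 from -5.02 without MOG KO replicate 2 to -0.35 without WT replicate 3. Psmf1, which encodes the inhibitor PI31, had 2.58, 0.447 and 3.97 RPM for WT against 0.231, 634 and 611 RPM for MOG KO. MOG KO replicate 1 held the lowest of the 6 values and the other MOG KO libraries the highest, so the groups overlapped. Its log2 fold change was 7.38 ± 2.91, with a 95% interval of 0.6 to 14.15, an unadjusted p of 0.0365 and an adjusted p of 0.829 in edgeR. DESeq2 put it past the threshold (7.08, adjusted p = 0.0211). Psmf1 lies on chromosome 2 from 151716062 to 151744199.

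Compared per kilobase of exon, the highest median levels over the 6 libraries were those of Psme2 (295 RPM per kilobase, uncertain for its copy), Psmb3 (211), Psme1 (195) and Psmb8 (192). The 6 genes present in all libraries had transcripts of 798 to 2961 bases (median 1799) with 39.4% to 55.8% G and C. The 38 genes present in 1 to 5 libraries spanned 766 to 6491 bases (median 1490.5) and 37% to 58.3%. The ranges of the groups overlapped in both measures.

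Among 29 other genes of the pathway found in the table, 20 were tested and 0 passed in edgeR, with 10 positive and 10 negative fold changes (median 0.04). The smallest unadjusted p among them was 0.127. Of subunits and chaperones outside the Psm symbols, the ubiquitin receptor gene Adrm1 had 148, 184 and 25.5 RPM for WT against 188, 672 and 467 RPM for MOG KO (log2 fold change 1.9 ± 1.44). All 3 MOG KO values of Adrm1 lay above all 3 WT values, and its unadjusted p was 0.223. AI314180, the mouse gene of the proteasome adaptor Ecm29, had 6.25, 2.01 and 2.83 RPM for WT against 1.39, 0.229 and 409 RPM for MOG KO. It had counts in every library but was present in 1 (log2 fold change 5.18 ± 3.02). These 2 were among 6 such genes tested, 3 positive and 3 negative with a median of 0.67.

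Of 8 deubiquitinase, ligase and shuttle genes tested, 5 fold changes were positive and 3 negative (median 0.22). Uchl5, a deubiquitinase that Adrm1 holds on the particle, had 0.368, 0 and 61.5 RPM for WT against 89.4, 0 and 133 RPM for MOG KO. Each genotype had a library with 0 counts of Uchl5 and the groups overlapped, with a log2 fold change of 1.65 ± 3.08.

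Nlrc5, the activator of class I genes, had 1117, 306 and 352 RPM for WT against 411, 631 and 408 RPM for MOG KO (log2 fold change -0.33 ± 0.71). Irf1, an interferon-response factor known to act on Psmb9, had 429.7, 28.4 and 591 RPM for WT against 45.1, 378 and 396 RPM for MOG KO (-0.45 ± 1.49). The groups of both overlapped. Tapbp, which bridges class I molecules to the transporter, had 737, 685 and 717 RPM for WT against 761, 629 and 387 RPM for MOG KO (-0.34 ± 0.47). Tap2, the other transporter subunit, had 809, 415 and 699.6 RPM for WT against 400.5, 589 and 684 RPM for MOG KO (-0.26 ± 0.55). Their groups overlapped too, and their SEs were smaller than that of any proteasome gene tested. The 3 transcription factor genes tested had a median of -0.33 and the 3 peptide transport genes one of -0.26, each list with 1 positive and 2 negative values. DESeq2 called 3 of the 20 partner genes with an adjusted p, a share near the 16.0% of all genes it called. These 20 are not the same set as the 20 tested in edgeR. The 3 called were Nfe2l2, Nploc4 and Usp14, named after their values were seen, with log2 fold changes of 7.66, -10.42 and -8.28. None of them passed the edgeR filter on low counts, and each was present in only 2 libraries.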

How the data were processed

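RNA of 500 cells per library was amplified (SMARTer V3, NexteraXT) and sequenced as single reads of 100 bases, per the labels. The authors deposited whole-number counts per gene and the same counts as RPM, scaled by each library's total. RPM equalled the rescaled counts within 1e-06. STAR 2.3.1, R 3.2.2 and mm10 are named in the submitters' processing notes. For the counting function, gene models and strand: not given in the sources used here.

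Differences in counts were assessed over the whole table by edgeR 4.0.16 (R 4.3.3, filterByExpr, TMM, robust quasi-likelihood fit with legacy dispersions, 3 against 3, threshold 0.05 on Benjamini-Hochberg adjusted p). DESeq2 1.42.0 and limma-voom 3.58.1 were alternatives, with other scaling and filters, a replicate block and each library left out. The tests were tried on data simulated for the genes that passed edgeR's filter, at the spread estimated from these libraries. There, most DESeq2 calls were false and edgeR missed most of the changed genes. Psmb5 and most other genes that DESeq2 called in the real data did not pass that filter, so the simulation does not cover them. The simulated counts followed the model that edgeR and DESeq2 assume. Whether it describes values that are mostly high or near 0 was not tested, so the outcome does not judge single calls such as that of Psmf1. One row without a symbol was dropped from naming. Whether replicate numbers pair the libraries is not given, so the main fit did not use them. Levels between genes used RPM per kilobase of GRCm38 exon, copies were found with BLAST 2.17.0, and promoters are from RefSeq on GRCm38.p6.

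Values in every library were given, by rule, for the catalytic subunit genes, genes present in all 6 libraries, genes tested whose groups did not overlap, the 5 of smallest unadjusted p in each direction, any past the threshold, and the 2 partners of smallest p per list, of which 1 gene is not reported here. Members, lists and the legacy dispersion setting, which matched an earlier analysis, were chosen with earlier results of these data known.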

Additional observations from a re-analysis of the deposited data

How the results depend on the processing

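The precision is limited by 3 libraries per genotype and an SE of 1.12 to 2.97 on the log2 scale for the proteasome genes tested. edgeR and limma-voom called 0 proteasome genes under every setting tried. DESeq2, which used another set of genes, called 745 of 4648 (16.0%), and 202 of these 745 were tested in edgeR. Its calls held 2 of 34 proteasome genes (5.88%) and 3 of 20 partners, both below that share. With the replicate number as a block the median fold change of the 37 proteasome genes was -0.04 with 0 calls. The correlations of same-numbered libraries were -0.022, -0.002 and -0.018. Those of the other WT and MOG KO pairs ran from -0.016 to 0.037. Such values cannot tell whether same-numbered samples share a mouse, day or batch, which the labels do not say. Psmf1 passed in DESeq2 alone (7.08). Present in all libraries were 12, 10, 6 and 4 genes at 3, 5, 20 and 50 RPM, and 6 to 12 when 1 library was left out at 10 RPM. That alternative and edgeR without legacy dispersions were chosen after seeing the data.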
